A study of Mus musculus with 6 samples.

Results

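Transcript levels of the transforming growth factor beta (TGF-beta) and bone morphogenetic protein (BMP) family were examined in MC3T3-E1 cells, a mouse pre-osteoblast line, after induction in osteogenic medium with or without metformin, a biguanide that lowers blood glucose. The family was taken by name from the protein-coding genes of the deposited table, as the BMP and growth differentiation factor (Gdf) ligands, the TGF-beta ligands, the activin and inhibin subunits, their type I, type II and type III receptors, and the Smads 1 to 5 and 9, and it held 47 of 54532 genes. The rule used names alone. The control group was 3 samples in osteogenic medium alone, and the metformin group was 3 samples in the same medium with 0.2 mM metformin, both for 3 days. Both groups therefore carried the ascorbic acid, beta-glycerophosphate and dexamethasone of the medium. All samples came from 1 established line. The dose, the time and the medium were taken from the study's text and not from the sample labels.

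Ligands of this family are secreted dimers that bring together a type II and a type I receptor, both of them serine/threonine kinases. The type I receptor then phosphorylates receptor Smads, which enter the nucleus with Smad4. In general, BMP ligands act through Smad1, Smad5 and Smad9, and TGF-beta and activins through Smad2 and Smad3. In bone, BMPs drive precursor cells towards osteoblasts, and TGF-beta is stored in the matrix in latent form.

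Levels are given as FPKM, fragment numbers scaled to the length of the gene and to a library size for each sample. This size was not the total of the recovered reads. It was 18260074 against 18399861 reads in control replicate 1, and 19655718 against 18792236 in control replicate 3. The recovered reads were 18399861 to 20652437 per control sample and 19256672 to 22111790 per metformin sample. The 3 metformin samples had pairwise Pearson correlations of 0.992 across genes, on the scale of log2(FPKM + 1). Control replicate 1 stood apart from the other controls, with correlations of 0.96 and 0.952 with them, against 0.988 between replicates 2 and 3. The osteoblast markers Runx2, Sp7, Col1a1, Ibsp and Spp1 were present in all 6 samples, and the summed FPKM of 12 osteoblast markers was 11550.0 to 13577 in controls and 8227 to 8726 with metformin. Spp1 was the largest term of this sum in every sample, at 6565 to 8357 FPKM in controls and 2680 to 2727 with metformin. The sum therefore does not describe the markers as a set. Of 11 tested osteoblast markers 2 were higher (Col1a1 and Col1a2) and 3 were lower (Spp1, Ibsp and Pth1r). Of all tested genes 13.2% were higher and 9.28% lower. The control and metformin means were 7703 and 2704 FPKM for Spp1, and 1339 and 2487 FPKM for Col1a1. The summed FPKM was 7.78 to 12.2 and 8.65 to 9.68 for 7 adipocyte markers, 27.4 to 41.6 and 29.4 to 32.1 for 6 chondrocyte markers, and 1.2 to 2.02 and 2.33 to 2.80 for 6 skeletal muscle markers, in controls and with metformin. It was 11.4 to 13.5 and 8.61 to 9.84 for 6 macrophage markers, and 0.439 to 0.726 and 0.723 to 1.10 for 5 endothelial markers. The largest terms of these sums in every sample were Cebpa, Sox9, Des, Cd14 and Vwf, so the sums do not describe whole sets either. Cd14 and Cd68, the 2 tested macrophage markers, were lower (adjusted p = 0.0496 and 0.0102 by limma). No tested adipocyte, chondrocyte, skeletal muscle or endothelial marker was called. Myod1, Myog, Myf5, Itgam and Cfd had no reads. The part of these marker levels in the results was not tested.

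Of the 47 genes, 27 had a mean FPKM of at least 0.5 and were tested, as part of a fit over 12681 genes. With metformin, 5 of the 27 were higher (Bmp4, Inhba, Gdf11, Smad9 and Tgfb3) and 4 were lower (Gdf6, Inhbb, Tgfbr3 and Smad3), at a threshold of 0.05 on limma p-values adjusted by Benjamini-Hochberg over all tested genes (SE, standard error of a log2 fold change). These were 18.5% and 14.8% of the tested members, where 13.2% of all tested genes were higher and 9.28% were lower. The 3 metformin samples lay above all 3 controls for 7 of the members and below them for 6, and for all tested genes these shares were 23.6% and 20.5%. The median log2 fold change was -0.0319 over the 27 members and 0.00532 over all tested genes. In either direction 9 of the 27 were called, where 22.5% of all tested genes were. The counts by role below rest on 1 to 6 tested genes each, too few to set a role apart from this share. With a correction for GC content, 16.3% of all genes were higher and 19.2% lower, with 6 and 6 members. Leaving out samples one at a time gave 6 further fits, and of the 9 changes 5 (Bmp4, Gdf6, Inhba, Gdf11 and Smad9) were called in all of them. Without control replicate 1 the members were 8 higher and 7 lower of 26 tested, where 23.5% and 20.4% of all genes were. The 4 lower members became 2 without control replicate 2 or metformin replicate 1, and 1 without metformin replicate 2 or 3. In these fits the share of all genes called lower was 5.82%, 3.83%, 3.98% and 4.15%. In bulk RNA, a change in the number of cells that express a gene and a change in its RNA per cell cannot be told apart.

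**Figure D1:**
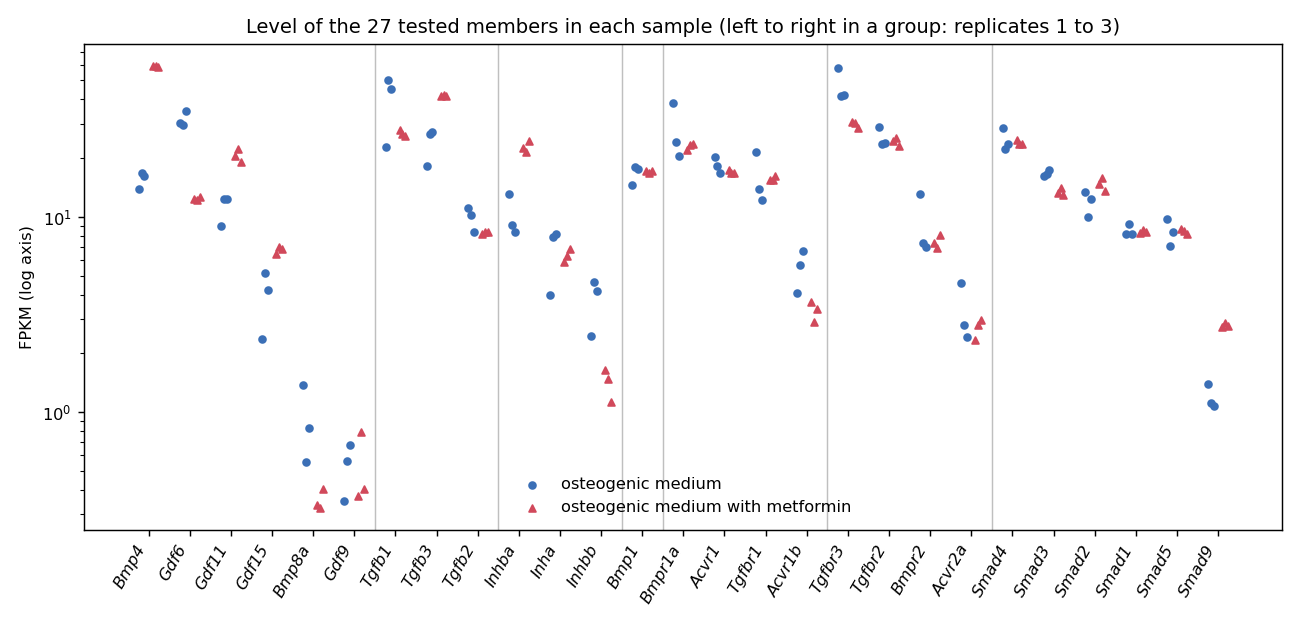
FPKM, on a log axis, of the 27 tested members in the 3 samples in osteogenic medium (blue circles) and the 3 samples with metformin (red triangles), ordered by role and mean level. Bmp4 lies at 13.9 to 16.7 FPKM in controls and at 58.6 to 59.2 with metformin, and Gdf6 at 29.7 to 35.0 and 12.2 to 12.7.

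**Figure D2:**
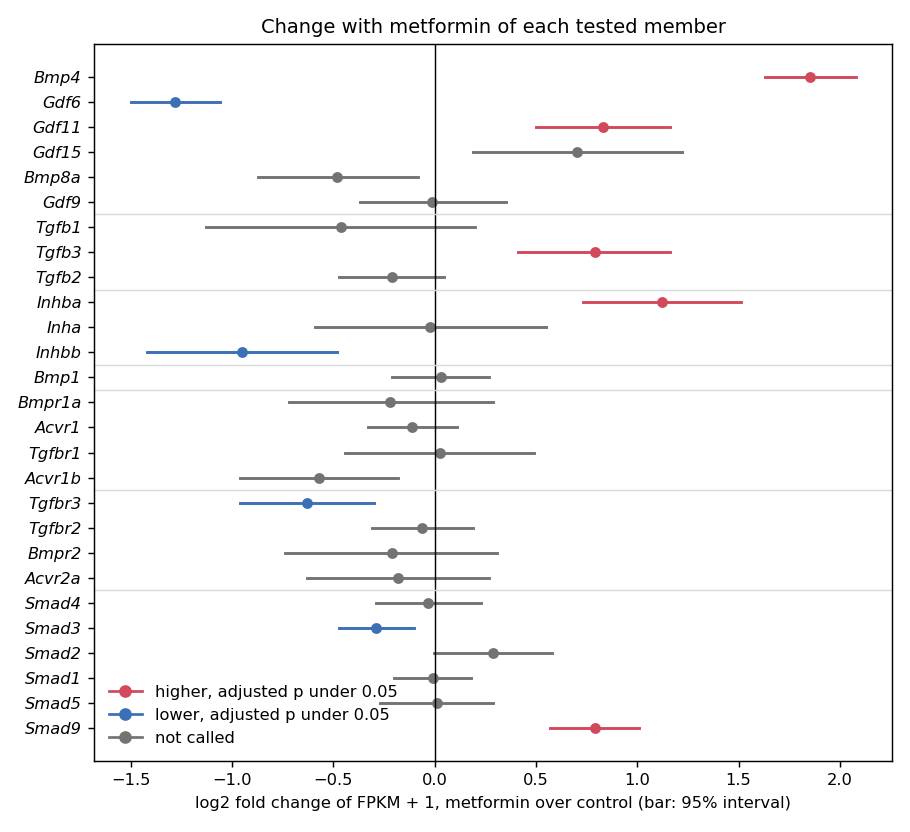
Log2 fold change of FPKM + 1, metformin over control, with its 95% interval by limma, for each tested member in the same order. The highest estimate is that of Bmp4 at 1.85 and the lowest that of Gdf6 at -1.28, and the intervals of Smad1 and Smad5 lie on both sides of 0.

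The promoters of the changed members are shown because these genes moved within 1 family in opposite directions. The RefSeq promoter table (GRCm38.p6) matched 34 of the 47 members and 20 of the 27 tested ones, 6 of the changed genes among them, and Gdf6, Tgfb3 and Tgfbr3 had no entry. Each sequence is the 250 bases before the annotated start, 5′ to 3′ on the strand of the gene. The windows are chr14:46390670-46390919 (minus strand) for Bmp4, chr3:54755332-54755581 (plus strand) for Smad9, chr10:128891719-128891968 (minus strand) for Gdf11, chr13:16011601-16011850 (plus strand) for Inhba, chr1:119422249-119422498 (minus strand) for Inhbb and chr9:63757995-63758244 (minus strand) for Smad3. Capitals mark the motifs found on either strand among the 6 that were searched, which were GGCGCC (a GC-rich element bound by BMP Smads), GTCTAGAC (the palindromic Smad element), TGANTCA (the AP-1 element), TGACGTCA (the cyclic AMP element), CACGTG (an E-box) and TATAAA.
Bmp4: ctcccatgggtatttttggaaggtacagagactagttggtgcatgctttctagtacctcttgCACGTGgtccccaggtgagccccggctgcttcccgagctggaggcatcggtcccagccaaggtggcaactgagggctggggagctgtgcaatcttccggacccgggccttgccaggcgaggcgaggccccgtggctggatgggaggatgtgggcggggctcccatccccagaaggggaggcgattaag
Smad9: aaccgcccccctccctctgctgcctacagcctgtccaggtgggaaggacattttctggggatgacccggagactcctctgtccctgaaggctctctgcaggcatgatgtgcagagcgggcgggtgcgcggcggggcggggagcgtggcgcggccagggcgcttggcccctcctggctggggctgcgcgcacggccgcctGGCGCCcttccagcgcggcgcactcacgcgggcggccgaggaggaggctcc
Gdf11: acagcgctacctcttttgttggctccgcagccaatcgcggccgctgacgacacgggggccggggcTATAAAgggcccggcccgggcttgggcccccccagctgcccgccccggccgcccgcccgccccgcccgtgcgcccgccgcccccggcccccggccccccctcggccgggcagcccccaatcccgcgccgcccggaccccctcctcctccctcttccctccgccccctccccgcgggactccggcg
Inhba: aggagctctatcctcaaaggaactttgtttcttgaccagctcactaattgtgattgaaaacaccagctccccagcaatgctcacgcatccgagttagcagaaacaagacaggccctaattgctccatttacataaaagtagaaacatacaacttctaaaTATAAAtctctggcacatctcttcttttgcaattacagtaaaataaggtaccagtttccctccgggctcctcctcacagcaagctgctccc
Inhbb: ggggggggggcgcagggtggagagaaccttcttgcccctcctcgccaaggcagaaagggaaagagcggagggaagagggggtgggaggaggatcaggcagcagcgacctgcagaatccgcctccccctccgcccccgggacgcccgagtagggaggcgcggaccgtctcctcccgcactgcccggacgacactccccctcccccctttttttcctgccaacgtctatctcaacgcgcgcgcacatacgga
Smad3: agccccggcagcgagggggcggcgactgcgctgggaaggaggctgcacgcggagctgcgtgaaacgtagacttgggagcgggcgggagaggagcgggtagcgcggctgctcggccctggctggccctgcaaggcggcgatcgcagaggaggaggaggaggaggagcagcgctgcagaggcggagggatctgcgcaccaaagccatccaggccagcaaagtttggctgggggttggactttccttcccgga

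In these windows Smad9 held GGCGCC 51 to 46 bases before its start, a motif in the windows of 10.8% of 27025 genes and of 5 of the 20 tested members (Bmpr1a, Bmpr2, Smad5, Smad9 and Tgfbr1). Bmp4 held CACGTG 188 to 183 bases before its start, which 6.86% of genes and 4 of the 20 members held. TATAAA was found 91 to 86 bases before the start of Inhba and 185 to 180 bases before that of Gdf11, and it was held by 14.3% of genes and 3 of the 20 members. GTCTAGAC, TGANTCA and TGACGTCA were in none of the 20 members' windows, and in those of 0.2%, 7.82% and 1.77% of genes. The windows of Inhbb and Smad3 held none of the 6 motifs. The GC content was 43.2% for the window of Inhba and 81.2% for that of Gdf11, against a median of 52.4% over 32851 windows. It was 63.2% for Bmp4, 73.2% for Smad9, 68.0% for Inhbb and 69.2% for Smad3, also above that median. The shares of genes given for each motif were not matched for GC content. A match describes these letters only and does not show binding.

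Among the BMP and GDF ligands, 2 of 6 tested genes were higher and 1 was lower. Bmp4, an osteogenic ligand (ENSMUSG00000021835, chromosome 14, 46383520 to 46390669, GRCm38), had 13.9, 16.7 and 16.2 FPKM in the 3 controls and 59.2, 58.9 and 58.6 FPKM with metformin. Every metformin sample was above every control, and the spread within either group was small beside the gap. The mean rose from 15.6 ± 1.48 to 58.9 ± 0.295 FPKM (SD, n = 3 per group), a log2 fold change of 1.85 (SE 0.093, adjusted p = 8.13e-05 by limma). With any 1 sample omitted the log2 fold change ranged from 1.78 to 1.90. Bmp4 overlaps Gm15217 and Gm15222 on the opposite strand, whose mean levels were 0.185 and 0.873 FPKM, and the methods do not state whether counting used strand.

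Gdf6 (ENSMUSG00000051279, chromosome 4, 9844372 to 9862345), a BMP-type ligand of joint and skeletal patterning also called BMP13, moved the other way. It had 30.2, 29.7 and 35.0 FPKM in the controls and 12.3, 12.2 and 12.7 FPKM with metformin, again without overlap. The mean fell from 31.6 ± 2.94 to 12.4 ± 0.26 FPKM (SD, n = 3 per group), a log2 fold change of -1.28 (SE 0.0917, adjusted p = 0.00024 by limma). The FPKM of Bmp4 was 0.462 to 0.561 times that of Gdf6 in the controls and 4.62 to 4.84 times with metformin, so the order of the 2 ligands was turned in every sample.

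Gdf11 (ENSMUSG00000025352, chromosome 10, 128882295 to 128891718), a close relative of myostatin that acts through activin receptors, had 8.97, 12.3 and 12.4 FPKM in the controls and 20.6, 22.2 and 19.0 FPKM with metformin. The groups did not overlap, although control replicate 1 was lowest. Its log2 fold change was 0.83 (SE 0.138, adjusted p = 0.00683 by limma), and 0.69 without control replicate 1. Gdf15, a stress-induced ligand of the distant receptor Gfral, had 2.37, 5.17 and 4.20 FPKM in the controls and 6.42, 7.04 and 6.85 FPKM with metformin. All metformin samples were above all controls, but the controls were spread widely and the test was not passed (log2 fold change 0.70, 95% interval 0.19 to 1.22, adjusted p = 0.0591 by limma). It was passed without control replicate 1 (0.45, adjusted p = 0.00773) and without control replicate 2 (0.89, adjusted p = 0.0362), under voom (0.84, adjusted p = 0.0457) and with the correction for GC content (0.61, adjusted p = 0.00492). Gdf15 was called under 6 of 14 alternatives. The adjusted p was 0.134 with no filter, 0.0921 without control replicate 3, and 0.142, 0.177 and 0.159 without metformin replicates 1, 2 and 3. Bmp8a was measured at 0.555 to 1.37 FPKM in controls and 0.324 to 0.406 with metformin, with a log2 fold change of -0.48 (adjusted p = 0.0853 by limma), or -1.23 under voom, and it reached the limit for testing only through the controls. Gdf9, an oocyte factor, was at 0.351 to 0.791 FPKM in both groups (adjusted p = 0.964).

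The other 14 BMP and GDF ligands were under the limit for testing. Bmp2 and Bmp7, which are used as osteoinductive proteins, had 0 reads in all 6 samples, as did Bmp3, Bmp5, Bmp8b, Bmp15, Gdf1, Gdf3 and Gdf10. A count of 0 allows up to 3 reads, which for Bmp2 is 0.0387 to 0.0462 FPKM and for Bmp7 0.0343 to 0.0409 FPKM, and covers counting error only. Gdf1 lies within Cers1 with 1349 identical bases, and Bmp5 shares 1879 bases with Gm26903. Gdf5 shares 940 bases with Gm15557, and Bmp6 shares 224 bases with Txndc5, at a mean of 64.4 FPKM. Reads of these stretches could therefore have been lost in counting. The stretch is the whole deposited length of Gdf1, 1349 bases. It is only a part of that of Bmp5 (4025 bases), Gdf5 (2320) and Bmp6 (3900). Bmp6 had 2 reads in the controls together and 5 with metformin, Gdf7 had 1 and 2, and Bmp10, Gdf2 and Gdf5 had 0 in controls and 1 or 2 with metformin. Bmp4, Gdf6 and Gdf11 therefore made up most of the BMP and GDF transcript in these cells.

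On the FPKM scale the summed level of the BMP and GDF ligands was 57.1, 65.1 and 69.4 in the controls and 99.2, 102 and 98.0 with metformin. Gdf6 made up 45.7% to 52.8% of this sum in the controls and 12% to 12.9% with metformin. Bmp4 made up 23.4% to 25.7% and 58.0% to 59.8%. The leading ligand transcript was thus Gdf6 in each control and Bmp4 in each metformin sample. Gdf11 held 15.7% to 19.0% in controls and 19.4% to 21.8% with metformin, so that its share moved little beside its level.

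**Figure D3:**
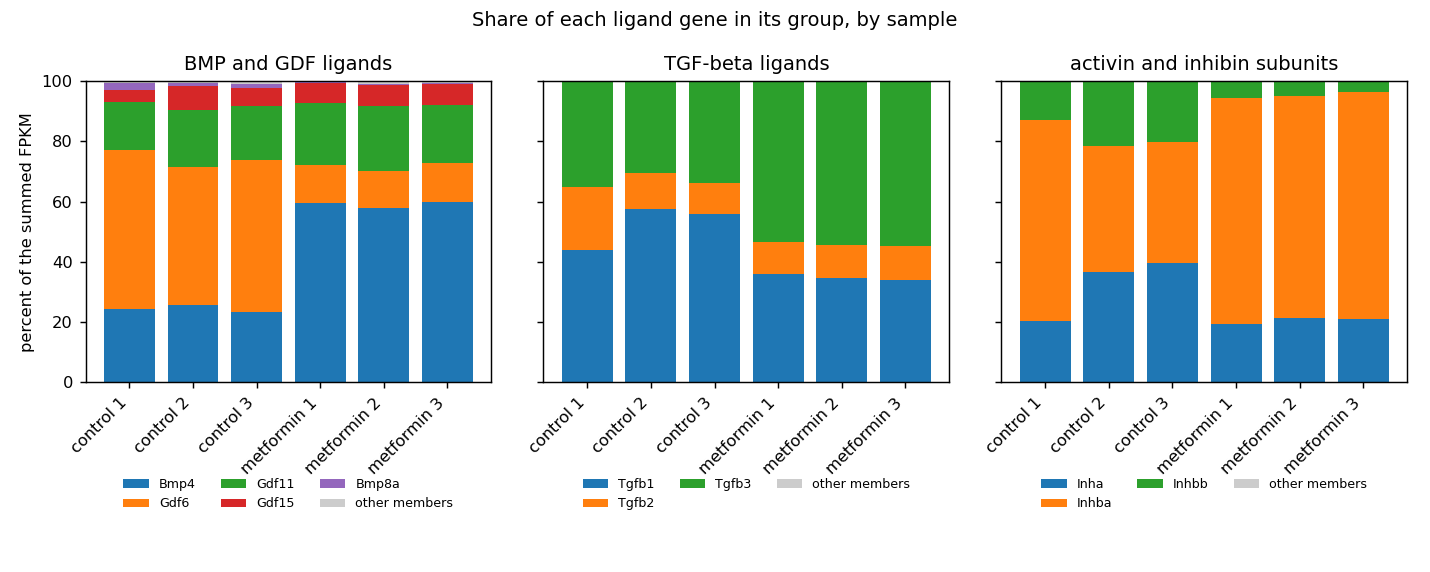
Share of each gene in the summed FPKM of the BMP and GDF ligands, the TGF-beta ligands and the activin and inhibin subunits, in each of the 6 samples; bars start at 0 and members under 1% in every sample are pooled in grey. Bmp4 goes from 23.4% to 25.7% in controls to 58.0% to 59.8% with metformin, and Tgfb3 from 30.7% to 35.0% to 53.5% to 54.8%.

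Of the 3 TGF-beta ligands, which control matrix production and are secreted in latent complexes, Tgfb3 was higher and the others did not pass the test. Tgfb3 (ENSMUSG00000021253, chromosome 12, 86056745 to 86079041) had 18.3, 26.7 and 27.3 FPKM in the controls and 41.5, 42.0 and 41.5 FPKM with metformin. Each metformin sample was above each control, with control replicate 1 lowest. The mean was 24.1 ± 5.06 and 41.7 ± 0.278 FPKM (SD, n = 3 per group), a log2 fold change of 0.79 (SE 0.157, adjusted p = 0.0137 by limma). The threshold was missed when any 1 of the 3 metformin samples was left out, with adjusted p-values of 0.0592, 0.0621 and 0.0589 without replicates 1, 2 and 3 and log2 fold changes of 0.78 to 0.79. Tgfb3 overlaps Ttll5 on the opposite strand, at a mean of 1 FPKM, and shares 258 bases with Gm48008, at 0.0484 FPKM.

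Tgfb1, the main TGF-beta of bone matrix, had 22.9, 50.2 and 45.3 FPKM in the controls and 27.9, 26.7 and 25.9 FPKM with metformin. Control replicate 1 was below and the other controls were above all metformin samples, so the groups overlapped (log2 fold change -0.46, 95% interval -1.13 to 0.2, adjusted p = 0.281 by limma). Without control replicate 1 the log2 fold change was -0.81 (adjusted p = 0.000237). Tgfb2 had 11.1, 10.2 and 8.36 FPKM in the controls and 8.21, 8.40 and 8.34 FPKM with metformin (log2 fold change -0.21, 95% interval -0.47 to 0.05, adjusted p = 0.213), and it passed the test only without control replicate 3 (-0.32, adjusted p = 0.0456) and with a correction for GC content (-0.29, adjusted p = 0.0258). The FPKM of Tgfb3 was 0.532 to 0.80 times that of Tgfb1 in the controls and 1.49 to 1.61 times with metformin. On this scale the more abundant isoform was Tgfb1 in each control and Tgfb3 in each metformin sample. That order with metformin rests on the deposited gene lengths, 5042 bases for Tgfb1 and 3383 for Tgfb3. The recovered reads with metformin were 2793, 2937 and 2539 for Tgfb1 and 2787, 3096 and 2736 for Tgfb3, so they lay close together. The summed level of the 3 ligands was 52.2, 87.1 and 81.0 FPKM in controls and 75.7 to 77.6 FPKM with metformin, and these ranges overlapped.

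Activins are dimers of beta subunits, and inhibins are dimers of the alpha subunit Inha with a beta subunit that oppose them. The 2 beta subunits expressed here moved in opposite directions. Inhba (ENSMUSG00000041324, chromosome 13, 16011851 to 16031621), the subunit of activin A, had 13.1, 9.04 and 8.35 FPKM in the controls and 22.4, 21.5 and 24.6 FPKM with metformin. The groups did not overlap, and the mean rose from 10.2 ± 2.56 to 22.8 ± 1.57 FPKM (SD, n = 3 per group), a log2 fold change of 1.12 (SE 0.163, adjusted p = 0.00422 by limma). It overlaps Gm48444 and B230303A05Rik on the opposite strand, with mean levels of 0.319 and 0.0196 FPKM.

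Inhbb (ENSMUSG00000037035, chromosome 1, 119415465 to 119422248), the subunit of activin B, had 2.46, 4.64 and 4.16 FPKM in the controls and 1.65, 1.48 and 1.13 FPKM with metformin. All metformin samples were below all controls, and the log2 fold change was -0.95 (SE 0.197, adjusted p = 0.0161 by limma). The adjusted p was 0.0537 without control replicate 2, 0.0509 without control replicate 3, 0.061 without metformin replicate 2 and 0.0691 without metformin replicate 3. It was also 0.0508 with no filter on low values. Inha had 3.97, 7.92 and 8.17 FPKM in the controls and 5.84, 6.28 and 6.82 FPKM with metformin, with control replicate 1 below and the others above (log2 fold change -0.0206, 95% interval -0.59 to 0.55, adjusted p = 0.962). Without control replicate 1 it was -0.31 (adjusted p = 0.0168). Inhba made up 66.9%, 41.7% and 40.4% of the summed FPKM of the subunits in the controls and 73.5% to 75.5% with metformin. Inhbc had 0 reads, and Inhbe had 5, 7 and 1 reads in the controls and 0, 0 and 1 with metformin.

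Bmp1, which carries a BMP name but is a metalloproteinase that removes the C-propeptide of fibrillar procollagens, had 14.6, 18.1 and 17.5 FPKM in the controls and 17.1, 16.8 and 17.1 FPKM with metformin. The groups overlapped, and the log2 fold change was 0.0299 (95% interval -0.21 to 0.27, adjusted p = 0.86 by limma).

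None of the 4 tested type I receptors passed the test at an adjusted p under 0.05 by limma. Bmpr1a, a receptor for Bmp4 and related ligands also called Alk3, had 38.2, 24.3 and 20.6 FPKM in the controls and 22.1, 23.3 and 23.5 FPKM with metformin (log2 fold change -0.22, 95% interval -0.72 to 0.29). Acvr1, also known as Alk2 and likewise a BMP receptor, had 20.2, 18.3 and 16.7 FPKM and 17.4, 16.7 and 16.8 FPKM (-0.11, 95% interval -0.33 to 0.11). Tgfbr1, the TGF-beta receptor Alk5, had 21.5, 13.9 and 12.2 FPKM and 15.5, 15.4 and 16.2 FPKM (0.0247, 95% interval -0.44 to 0.49). In these 3 receptors control replicate 1 was the highest of the 6 samples. Without it Tgfbr1 was called higher (0.25, adjusted p = 0.0275), and the log2 fold changes of Bmpr1a and Acvr1 were 0.033 and -0.04.

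Acvr1b, the activin receptor Alk4, had 4.08, 5.68 and 6.71 FPKM in the controls and 3.66, 2.90 and 3.39 FPKM with metformin. All metformin samples were below all controls, and the adjusted p was 0.0501 (log2 fold change -0.57, 95% interval -0.96 to -0.18). It was under the threshold without control replicate 1 (-0.74, adjusted p = 0.00209), and with a pseudocount of 0.1 (adjusted p = 0.0489), at least 10 reads in every sample (0.0433), voom on the recovered reads (0.0365) or the correction for GC content (0.00898). Acvr1b was called under 6 of 14 alternatives. The adjusted p was 0.118 with no filter, 0.0568 with scaling by total reads, and 0.102 to 0.176 when any other sample was omitted. Bmpr1b had 0 reads, which allows up to 0.0231 to 0.0276 FPKM, so of the BMP type I receptors Bmpr1a and Acvr1 were measurable in quantity. Acvrl1, an endothelial receptor, had 3, 8 and 12 reads in the controls and 0, 0 and 2 with metformin, and Acvr1c had at most 3 reads in a sample. The summed level of the type I receptors was 56.4 to 84.0 FPKM in controls and 58.4 to 59.9 FPKM with metformin.

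Of the type II receptors, none of the 3 tested genes passed the test. Tgfbr2, which binds TGF-beta, had 28.8, 23.6 and 23.8 FPKM in the controls and 24.4, 25.2 and 23.1 FPKM with metformin (log2 fold change -0.0603, 95% interval -0.31 to 0.19, adjusted p = 0.72 by limma). Bmpr2, which binds BMPs, had 13.1, 7.32 and 6.98 FPKM and 7.35, 6.95 and 8.08 FPKM (-0.21, 95% interval -0.74 to 0.31). Acvr2a, which binds activins and BMPs, had 4.57, 2.81 and 2.43 FPKM and 2.34, 2.81 and 2.96 FPKM (-0.18, 95% interval -0.63 to 0.27). The high control in each of them was replicate 1, and without it the log2 fold changes were 0.03, 0.05 and 0.03. Acvr2a shares 446 bases with Orc4, at a mean of 3.94 FPKM, so its reads could be split with that gene. Acvr2b had at most 2 reads in a sample.

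Tgfbr3 (ENSMUSG00000029287, chromosome 5, 107106570 to 107289629) encodes betaglycan, a co-receptor without kinase activity that presents TGF-beta and also binds inhibin and BMPs. It was the most abundant receptor transcript per length, with 57.6, 41.8 and 42.3 FPKM in the controls and 30.6, 30.4 and 28.5 FPKM with metformin. All metformin samples were below all controls. The mean fell from 47.2 ± 8.98 to 29.9 ± 1.17 FPKM (SD, n = 3 per group), a log2 fold change of -0.63 (SE 0.138, adjusted p = 0.0198 by limma). Without control replicate 1 it was -0.48 (adjusted p = 0.000953), and without metformin replicates 1, 2 and 3 the adjusted p was 0.0745, 0.0769 and 0.0866. A stretch of 306 bases matched Gm43422, at a mean of 0.116 FPKM, with 99.3% identity.

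Among the 6 Smads, Smad9 was higher and Smad3 lower. Smad9 (ENSMUSG00000027796, chromosome 3, 54755582 to 54801257), formerly called Smad8 and a Smad of the BMP branch, had 1.40, 1.12 and 1.08 FPKM in the controls and 2.72, 2.87 and 2.77 FPKM with metformin. The groups did not overlap, and the mean rose from 1.2 ± 0.173 to 2.79 ± 0.0762 FPKM (SD, n = 3 per group), a log2 fold change of 0.79 (SE 0.0933, adjusted p = 0.00172 by limma). The log2 fold change was 1.16 with a pseudocount of 0.1 and 1.23 under voom. Smad9 was the least abundant of the Smads, and its share of the summed FPKM of Smad1, Smad5 and Smad9 went from 6.15% to 7.22% in controls to 13.9% to 14.4% with metformin.

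Smad1 and Smad5, the abundant Smads of the same branch, did not pass the test. Smad1 had 8.16, 9.14 and 8.16 FPKM in the controls and 8.30, 8.60 and 8.40 FPKM with metformin (log2 fold change -0.00602, 95% interval -0.20 to 0.18, adjusted p = 0.967 by limma). Smad5 ranged from 7.11 to 9.80 FPKM in controls and from 8.16 to 8.62 FPKM with metformin (0.0124, 95% interval -0.27 to 0.29). Smad4, the partner of all receptor Smads, had 28.5, 22.2 and 23.6 FPKM and 24.9, 23.7 and 23.6 FPKM (-0.0319, 95% interval -0.29 to 0.23).

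Smad3 (ENSMUSG00000032402, chromosome 9, 63646767 to 63757994), a Smad of the TGF-beta and activin branch, had 16.1, 16.5 and 17.3 FPKM in the controls and 13.3, 14.1 and 13.0 FPKM with metformin. The groups did not overlap, but the change was small, with a log2 fold change of -0.29 (SE 0.0777, adjusted p = 0.0408 by limma). With samples omitted in turn it was called once, without control replicate 1 (adjusted p = 0.00751). In the others the adjusted p was 0.0921 and 0.0767 without control replicates 2 and 3, and 0.173, 0.115 and 0.174 without metformin replicates 1, 2 and 3. Smad2, the other Smad of this branch, had 13.4, 10 and 12.4 FPKM in the controls and 14.7, 15.8 and 13.6 FPKM with metformin. It was above every control in each metformin sample, with a log2 fold change of 0.29 that did not pass the test (adjusted p = 0.144), and it passed without control replicate 1 (0.37, adjusted p = 0.0277). The FPKM of Smad2 was 0.607 to 0.828 times that of Smad3 in the controls and 1.04 to 1.12 times with metformin. Their sum was 26.5 to 29.7 FPKM in controls and 26.6 to 29.9 FPKM with metformin. In recovered reads Smad2 was below Smad3 in every sample, with 1034, 1225 and 939 against 1462, 1702 and 1405 with metformin. The order with metformin on the FPKM scale therefore rests on the deposited gene lengths, 3549 bases for Smad2 and 5542 for Smad3.

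The deviation of control replicate 1 from the other controls followed the GC content of the members. The 5 members with a GC content of 39.9% to 41.4% in their longest transcript (Acvr2a, Tgfbr1, Bmpr2, Bmpr1a and Inhba) were higher in that sample than in the mean of the other controls, by 0.541 to 0.793 on the scale of log2(FPKM + 1). Inha, Inhbb and Gdf15, at 59.7% to 61.3%, differed by -0.863, -0.641 and -0.752. Bmp8a, at 59.5%, was an exception at 0.49, and Tgfb1 had the lowest deviation, -1.03, at 52.5%. Across all tested genes the Spearman correlation of this deviation with GC content was -0.668, where genes are not independent. With a correction for GC content in each sample, the log2 fold changes were 1.81 for Bmp4, -1.32 for Gdf6, 1.11 for Inhba, 0.79 for Gdf11 and 0.71 for Smad9, all still called.

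**Figure D4:**
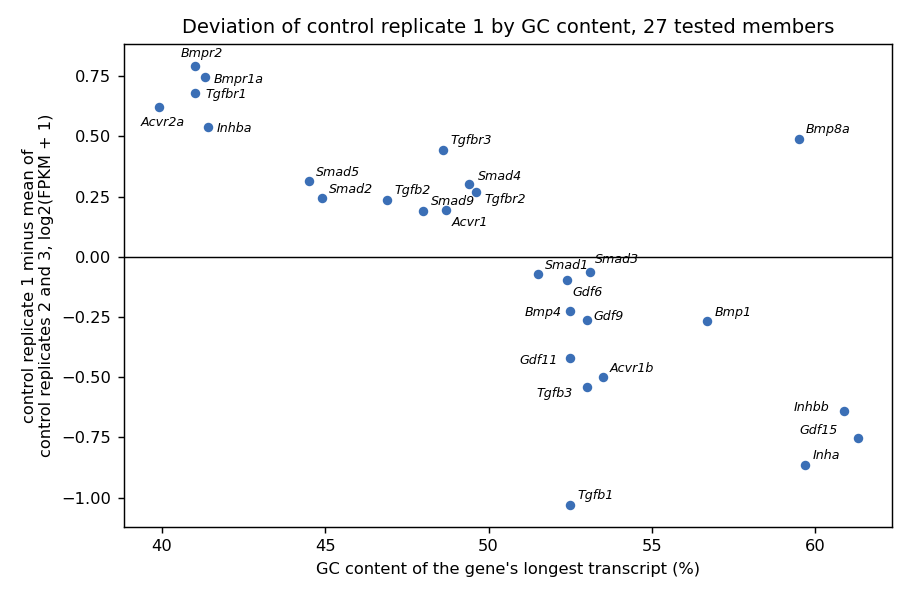
Difference between control replicate 1 and the mean of control replicates 2 and 3, on the scale of log2(FPKM + 1), against the GC content of the longest transcript of each of the 27 tested members, 1 point per gene. Members of low GC content lie above 0 and most of those of high GC content below it, from 0.793 for Bmpr2 to -1.03 for Tgfb1, with Bmp8a as an exception at 0.49.

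The wider pathway was followed in lists of named genes. For comparison with each list, 13.2% of all tested genes were higher and 9.28% were lower, and their median log2 fold change was 0.00532. Of 13 tested target genes of BMPs and Smad1, Smad5 and Smad9, 8 were higher and 2 were lower with metformin, with a median log2 fold change of 0.991. The Id genes encode inhibitors of basic helix-loop-helix factors, and Id2 rose from 2.56 ± 0.417 to 22.5 ± 1.99 FPKM (log2 fold change 2.73, adjusted p = 6.43e-05 by limma) and Id3 from 30.5 ± 3.31 to 156 ± 3.05 FPKM (2.32, adjusted p = 6.43e-05; SD, n = 3 per group for both). Atoh8, a transcription factor, rose from 3.51 ± 0.804 to 18.5 ± 1.21 FPKM (2.13, adjusted p = 0.000193). Not all targets moved this way, since Id4 (-0.58, adjusted p = 0.00822) and Dlx3 (-0.82, adjusted p = 0.0214) were lower, with 5 and 1 of 6 calls kept when samples were omitted in turn, and Runx2 and Sp7, the osteoblast regulators, did not pass the test (-0.18 and 0.36, adjusted p = 0.243 and 0.0586).

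Of 14 tested target genes of TGF-beta and Smad2 and Smad3, 7 were higher and 2 were lower, with a median log2 fold change of 0.28. Acta2, smooth muscle actin, rose from 224 ± 39.7 to 1204 ± 19.3 FPKM (log2 fold change 2.43, adjusted p = 0.000125 by limma; SD, n = 3 per group), Ctgf, a matricellular protein, rose by 1.58 (adjusted p = 0.000165) and Tgfbi, a matrix protein, by 1.16 (adjusted p = 0.000557). Pmepa1 and Col3a1 were lower (-0.34 and -0.33, adjusted p = 0.0226 and 0.0464), with 2 and 1 of 6 calls kept on omission of samples. Tagln, one of the 7, reached the limit for testing only through the metformin group. Many of these genes also respond to other signals.

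Of 9 tested inhibitory Smads and feedback inhibitors 2 were higher and 2 were lower, with a median log2 fold change of 0.0883. Smad7 and Smad6, which block receptor Smads, rose by 1.08 and 1.01 (adjusted p = 0.0073 and 0.00881 by limma), and Tgif1, a co-repressor, was lower (-0.56, adjusted p = 0.00782). Smad7 is counted in all 3 of these lists and Smad6 in 2 of them. Pmepa1 and Skil are counted both among the feedback inhibitors and among the TGF-beta targets, and Pmepa1 is 1 of the 2 lower genes of each. Of 10 tested extracellular antagonists of BMPs and activins 1 was higher and 2 were lower, with a median of -0.076. Chrdl1, which binds BMPs, was higher by 0.93 (adjusted p = 0.0469 by limma), with 1 of 6 calls kept when samples were omitted in turn. Grem1, a BMP antagonist, was lower (-0.64, adjusted p = 0.0194, 3 of 6 calls kept), as was Dand5 (-0.58, adjusted p = 0.0112, 4 of 6 kept). Noggin (Nog) was not tested, at a mean of 0.0888 and 0.0781 FPKM.

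Of 12 tested genes of TGF-beta latency and release and of co-receptors, 3 were higher and 2 were lower, with a median log2 fold change of 0.218. Itgav and Itgb8 encode subunits of an integrin that releases TGF-beta. Itgav rose by 1.10 (adjusted p = 0.00746 by limma). Itgb8, at a mean of 1.35 FPKM in controls and 0.269 with metformin, was -0.87 (adjusted p = 0.0153, 4 of 6 calls kept), but it reached the limit for testing only through the controls, so its call is no support for a difference. Ltbp1, which binds latent TGF-beta to the matrix, rose by 0.79 (adjusted p = 0.00297). The others called were Fbn1, a fibrillin, at 0.48 (adjusted p = 0.0273, 1 of 6 kept) and Rgma, a BMP co-receptor, at -0.39 (adjusted p = 0.0178, 2 of 6 kept). Of 10 further superfamily genes 2 were tested, Gdnf, which was higher (0.60, adjusted p = 0.00565), and Pspn, which was lower (-0.86, adjusted p = 0.0329, 1 of 6 kept). Both reached the limit for testing only through the group in which they were high, with means of 0.487 and 1.26 FPKM for Gdnf and 1.33 and 0.243 FPKM for Pspn, so these calls are no support for a difference. Mstn, Nodal and Lefty2 had no reads.

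**Figure D5:**
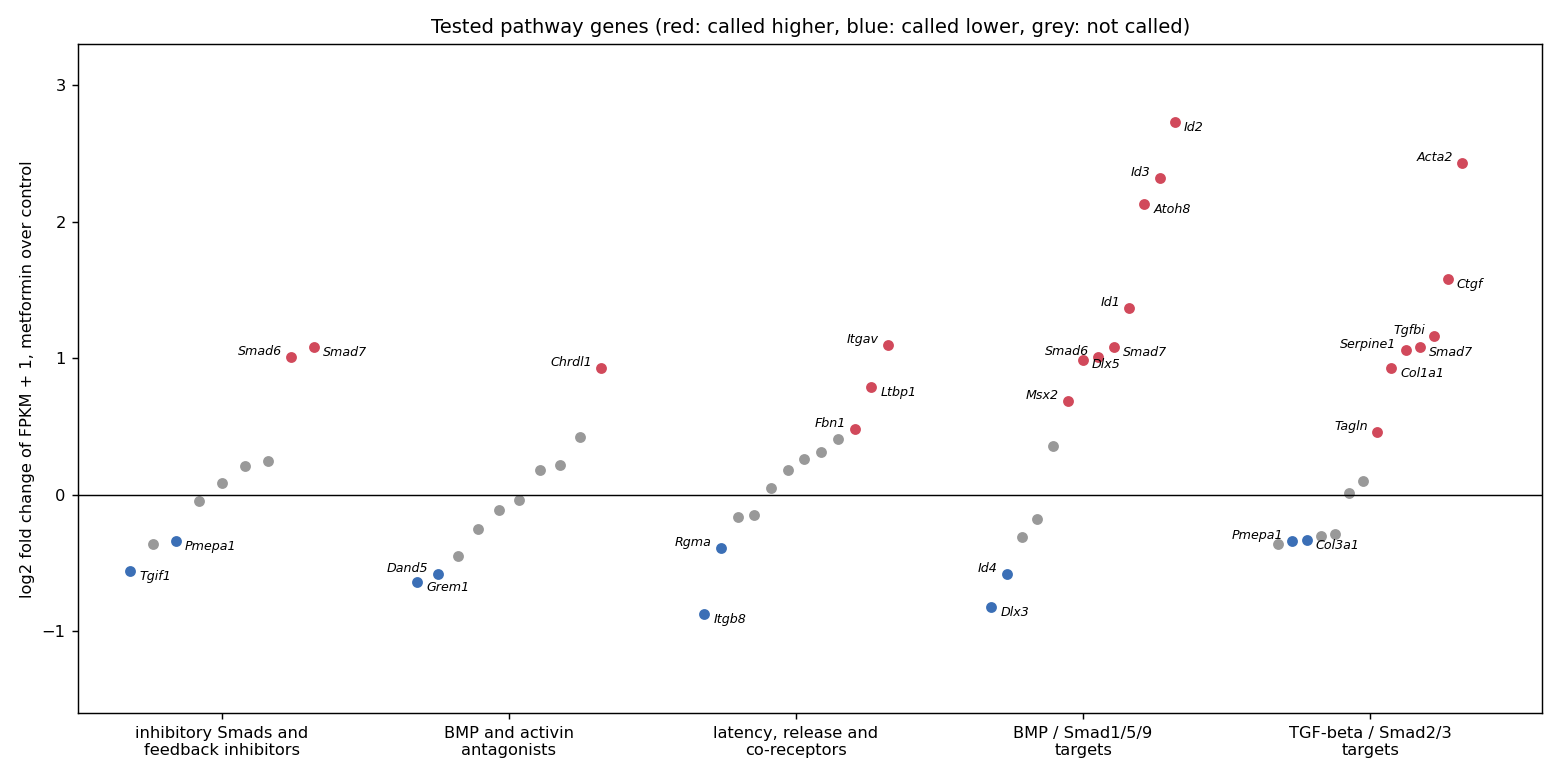
Log2 fold change of FPKM + 1, metformin over control, of each tested gene of 5 pathway lists, 1 point per gene in rising order, red where called higher, blue where called lower and grey where not called. In the list of BMP targets 8 of 13 genes are red, up to Id2 at 2.73, and in that of inhibitory Smads and feedback inhibitors 2 of 9 are red. Of all tested genes 13.2% were called higher.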

How the data were processed

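Osteoblasts of the MC3T3-E1 line were sequenced in 3 samples per group, from TruSeq libraries per the labels, and the study's methods call them biological replicates. The authors deposited 1 table of 54532 genes without naming its unit. Its values are FPKM: value times the deposited gene length, a number whose definition is not given in the sources used here, gave whole reads after division by 1 constant in each sample, for 100% of nonzero values (tolerance 0.01 reads). The submitters' processing notes name Bowtie 0.12.2 and the builds mm8 and mm9, with no role. The identifiers and, for 46 of the 47 members, the coordinates are those of GENCODE M21 (GRCm38). The table had 0 further per-sample columns, and 54495 identifiers had a GENCODE M21 entry.

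Values were transformed as log2(FPKM + 1), genes whose mean was under 0.5 FPKM were removed, and the remaining 12681 genes were fitted in limma 3.58.1 (R 4.3.3; eBayes with trend) without a block. P-values were adjusted by Benjamini-Hochberg across this set, at a threshold of 0.05. Fold changes on this scale understate those of low genes. GC content came from the longest transcript in GENCODE M21, and transcripts were called near-identical at 95% identity over 200 bases (BLAST+ 2.17.0). Figures used matplotlib 3.10.9. Alternatives were a pseudocount of 0.1, no filter, at least 10 reads in every sample, scaling by total reads, voom on the recovered reads, the replicate number as a block, a correction for GC content in each sample (spline with 5 degrees of freedom), both together, and leaving out each sample. Every member is accounted for, the called members and the 3 most abundant others of each role by sample, and of each pathway list at most the 3 called genes of largest change, with others named after their values were seen. Ccn2 and Hjv were found as Ctgf and Hfe2. The members and lists were chosen with earlier results of these data known. A gene of the list of extracellular antagonists is not reported here and was left out of its counts.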

Additional observations from a re-analysis of the deposited data

How the results depend on the processing

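The 5 higher and 4 lower members became 5 and 5 at a pseudocount of 0.1 or a minimum of 10 reads per sample, 5 and 3 if no filter was set, 5 and 4 if total reads set the scale, 6 and 5 under voom, 6 and 6 under GC correction, and 6 and 5 under GC correction plus replicate block. With the replicate number as a block they were 6 and 3, Gdf15 gaining a call (adjusted p = 0.0492) and Smad3 losing it (adjusted p = 0.151). Over all tested genes the block gave 1161 higher and 698 lower in place of 1670 and 1177. The GC correction gave 2062 and 2433, and omission of 1 sample 926 to 2974 and 486 to 2587. GC correction plus block called 13.4% of all genes higher and 14.9% lower. The pseudocount gave 12.9% and 9.19%, the minimum of 10 reads 13.9% and 10.2%, and total reads 12.6% and 10.5%. Voom called 1776 genes higher and 1237 lower. Without a filter 36 members were tested instead of 27, and 5.77% of 24801 genes were higher and 3.56% lower. The member counts of that fit therefore rest on a different base. Deviations from the group means correlated at -0.0533, 0.000265 and -0.0549 for replicates 1, 2 and 3. No control sample correlated best with the metformin sample of its own number. These values show no pairing by number but cannot exclude it, since the metformin samples differed little from one another (correlations of 0.992). With 1 sample left out, 4 to 8 members were higher and 1 to 7 lower, the highest counts being those without control replicate 1. The shares of all tested genes in these fits were 7.29% to 23.5% higher and 3.83% to 20.4% lower. The cause was not tested.

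Bmp4, Gdf6, Gdf11, Inhba and Smad9 kept direction and call in all 14 alternatives. The sign turned only for members that were not called. Across the fits that left out 1 sample, log2 fold changes ranged from -0.40 to 0.033 for Bmpr1a, -0.11 to 0.0297 for Tgfbr2, -0.10 to 0.0695 for Smad4, -0.0592 to 0.0867 for Bmp1, -0.13 to 0.25 for Tgfbr1, -0.0305 to 0.0428 for Smad1, -0.0901 to 0.12 for Smad5, -0.36 to 0.0525 for Bmpr2, -0.31 to 0.13 for Inha, -0.32 to 0.0305 for Acvr2a and -0.0993 to 0.0575 for Gdf9. With the GC correction, alone or with the block, Bmp1 was -0.0341 and Smad5 -0.0448, and with scaling by total reads Tgfbr1 was -0.00139 and Smad5 -0.0127. The median gene shifted by -0.0542 under GC correction and by -0.0246 under total-read scaling. At the depth of these samples, members with under 3 reads cannot be compared.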
